A study of Mus musculus with 36 samples.

Results

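The genes described here form the Atf4 response to amino acid shortage: 37 mouse genes chosen by name, namely Atf4 and transcription factors that act with it, feedback and stress genes, enzymes that make amino acids, amino acid transporters and the tRNA exporter Xpot. The list was drawn up with earlier results of these data known. A gene was taken where a probe set carried its symbol and no other. This gave 36 measured genes among 19938, each on 1 probe set, and Pycr1 was not measured in this way. No filter on low values was applied, so all 36 were tested.

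RNA levels came from mouse bone marrow progenitors that had been expanded with cytokines in culture and isolated by FACS. Multipotent progenitors (MPP) can form all blood lineages, and common dendritic progenitors (CDP) are committed to dendritic cells. Cells were taken before treatment (0 h) and after 2, 4, 8, 12 and 24 h with human TGF-β1 (recombinant, 10 ng/ml), with 3 arrays (Affymetrix Mouse Gene 1.0 ST) in each of 12 groups and 36 in all. One protocol text gives another time in place of 8 h, and the sample names and the study's methods give 8 h. No genotype, strain, sex or age of the mice is given in the sources used here, and untreated cells were measured at 0 h alone, so TGF-β1 and time in culture cannot be told apart. All 5 comparisons with 0 h in a cell type share the same 3 untreated arrays. In bulk RNA, fewer cells of a type and less RNA per cell cannot be told apart.

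The arrays carried their cell type labels in part. The mean of 8 dendritic progenitor genes was 11.68 in untreated CDP and 11.00 in untreated MPP on the deposited log2 scale. In untreated MPP 8 neutrophil genes had a mean of 12.20, and in untreated CDP 8.25. For 6 mast cell and basophil genes the means were 9.62 in untreated MPP and 6.81 in untreated CDP. Those of 6 progenitor genes were 11.26 and 10.91, and single genes of that list differed by -2.67 to 2.14 (CDP minus MPP). Within a group the arrays correlated at 0.989 or above. Some arrays stood apart for 10 interferon-stimulated genes: their mean was 10.54 in untreated CDP replicate 3 and 8.36 and 8.07 in replicates 1 and 2, and it reached 12.51 in CDP replicate 3 at 2 h. Replicate 1 carried transcripts of the Y chromosome and replicates 2 and 3 carried Xist, in both cell types. In MPP replicate 3, Xist read 13.63 at 0 h and 13.72 at 24 h. It read 12.81, 12.62, 12.78 and 12.93 there at 2, 4, 8 and 12 h. Whether the arrays of MPP replicate 3 share one source was not tested.

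Atf4 is a transcription factor whose protein is made when translation slows. Kinases that sense amino acid shortage, unfolded protein, haem shortage or viral RNA phosphorylate the initiation factor eIF2, most translation falls, and Atf4 mRNA is then read more. Atf4 binds, with C/EBP family partners, to short sites near genes that import or make amino acids, charge tRNA or limit the response itself.

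The best known site of this kind carries the core TGATGNAA, where N is any base. It was searched on both strands in windows from 250 bases before to 50 bases after each start site (RefSeq, GRCm38.p6). A window was found for 32 of the 36 genes and 11 of them (34.4%) held the core, while 565 of 15614 genes on the arrays with a window (3.62%) did. These are descriptions of letters, not of binding. The sequences below are those of some of the genes that held the core, with the core or its complement in capitals, read 5′ to 3′ on the strand of the gene:
Asns: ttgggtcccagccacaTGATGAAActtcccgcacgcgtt
Chac1: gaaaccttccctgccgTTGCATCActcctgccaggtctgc
Atf3: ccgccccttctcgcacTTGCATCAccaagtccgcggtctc
Nupr1: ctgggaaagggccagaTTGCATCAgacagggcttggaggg
Slc7a11: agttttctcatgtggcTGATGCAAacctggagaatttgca
Vldlr: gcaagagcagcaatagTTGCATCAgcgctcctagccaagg

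The Asns stretch is chr6:7693210-7693248 on the minus strand, with the core at positions -23 to -16 from the start site. Chac1 is shown at chr2:119351033-119351072 on the plus strand, with the core at -193 to -186. Atf3 (chr1:191183420-191183459, minus strand) and Nupr1 (chr7:126625557-126625596, minus strand) both carry it at -110 to -103. Slc7a11 (chr3:50443656-50443695, minus strand) has one core at -66 to -59 and another at -47 to -40. Vldlr (chr19:27216804-27216843, plus strand) has it at -200 to -193. The other 5 with the core were Herpud1, Jdp2, Pck2, Slc1a4 and Trib3, the last with it after the start site.

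The level of these genes fell during TGF-β1 treatment in both progenitors. In MPP the mean over the 36 genes was 10.62 ± 0.03 (SD, n = 3) before treatment, 10.58 at 2 h, 10.39 at 4 h, 10.18 at 8 h, 10.15 at 12 h and 10.14 ± 0.01 at 24 h. In CDP it was 10.53 ± 0.09 before treatment, 10.37 at 2 h, 10.18 at 4 h, 10.00 at 8 h, 9.81 at 12 h and 9.66 ± 0.05 at 24 h. The MPP mean was thus almost level from 8 h on, and the CDP mean was lower at each later time. The drop by 24 h was -0.51, -0.50 and -0.43 in MPP replicates 1, 2 and 3, and -0.88, -1.01 and -0.75 in the CDP replicates. Every replicate fell, and the 3 drops in CDP lay below the 3 in MPP. The interferon-stimulated genes of CDP replicates 1, 2 and 3 read 8.36, 8.07 and 10.54 before and 9.28, 8.29 and 9.89 at 24 h. Their part in the drops was not tested. The mean over the 36 genes is a description of the chosen list and was not tested.

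**Figure D1:**
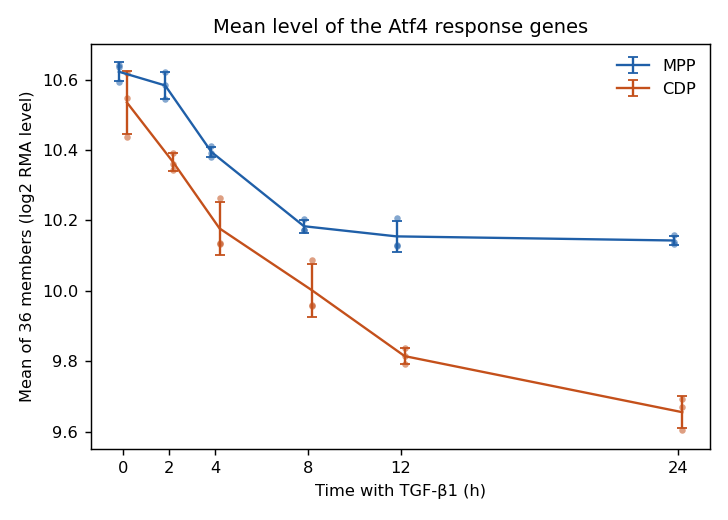
Mean log2 level of the 36 measured Atf4 response genes (vertical axis) against hours with TGF-β1 (horizontal axis) in MPP (blue) and CDP (orange). Points are arrays, lines join group means and bars are the SD of 3 arrays. The MPP mean is nearly level from 8 h at about 10.18, and the CDP mean goes on down to 9.66 at 24 h.

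Calls came from limma fits over all 19938 genes, with 2 rules: a Benjamini-Hochberg adjusted p under 0.01 at any size, or the same with a change of 2-fold or more. In MPP, 3 genes were lower at 2 h (1% of all genes were), 11 at 4 h (2.06%), 24 at 8 h (3.71%), 26 at 12 h (3.58%) and 28 at 24 h (4.09%). In CDP the numbers were 5 at 2 h (0.808%), 17 at 4 h (2.51%), 23 at 8 h (4.89%), 28 at 12 h (6.1%) and 27 at 24 h (11.9%). So the share of these genes called lower was above that of all genes at every time. This is a description and not a test of the list, which was chosen with earlier results of these data known. By the 2-fold rule 5 were lower at 24 h in MPP (0.487% of all genes) and 17 in CDP (1.79%), and none was 2-fold higher at 24 h (0.717% and 1.35%). Few of them were called higher at any size. In MPP 2 were at 2 h (2.26%), none at 4 h (2.98%) or 8 h (5.46%), 1 at 12 h (4.73%) and 1 at 24 h (5.61%). In CDP none was at 2 h (1.12%), 4 h (2.33%), 12 h (5.58%) or 24 h (7.83%), and 1 was at 8 h (4.62%). The median change at 24 h was -0.37 in MPP and -0.94 in CDP, beside -0.01 and 0.00 over all genes. At 24 h all 3 arrays lay below all 3 untreated arrays for 30 genes in MPP (13.2% of all genes) and 26 in CDP (19.9%).

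The counts in MPP depended on how replicates entered the fit. Without the replicate block, 17 genes were lower at 24 h in MPP in place of 28, 16 at 12 h in place of 26, 5 at 4 h in place of 11 and 1 at 2 h in place of 3. In CDP the same fit gave 10 at 4 h and 1 at 2 h, and 25 at 24 h. Leaving out all arrays of replicate 1 gave 11 at 24 h in MPP, leaving out replicate 2 gave 15 and leaving out replicate 3 gave 26. The same steps gave 23, 24 and 27 in CDP. No share of all genes under the same fit stands beside the counts from alternative fits, here or below. They therefore describe the list alone. Calls kept at 24 h under all alternatives run were 10 in MPP (Atf3, Nupr1, Trib3, Chac1, Eif4ebp1, Asns, Mthfd2, Cth, Gpt2 and Slc6a9) and 23 in CDP, where the calls of Ddit3, Ddit4, Vldlr and Slc3a2 were lost under 1 or more. Where an adjusted p without a replicate or without the block follows a gene's 24 h value in parentheses, it is the highest of the alternatives run for that value.

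A comparison that leaves out the untreated arrays gave the same direction. From 2 h to 24 h, 24 genes fell in MPP (4.14% of all genes) and 1 rose (4.2%), and 23 fell in CDP (10.2%) and none rose (7.97%). The MPP gene that rose was Vldlr. Without replicate 1 the MPP count was 12 and without replicate 2 it was 14. Over the whole time course a moderated F-test with a change of 2-fold at one time or more called 4 genes in MPP (1.33%) and 17 in CDP (3.43%).

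Genes listed as monocyte and macrophage markers fell at the same times. The mean of 8 monocyte and macrophage genes went from 10.85 (range 10.63 to 11.01) in untreated MPP to 9.95 (9.74 to 10.13) at 24 h, and from 10.68 (10.50 to 10.92) in untreated CDP to 8.80 (8.63 to 9.04). Of these 8, 6 were lower at 24 h in MPP (4.09% of all genes) and 8 in CDP (11.9%). Adgre1, which encodes a macrophage surface receptor, went from 11.73 to 8.30 in CDP. The growth factor receptor gene Csf1r, which is also on the dendritic progenitor list, was at 12.80 and 12.45 there. The part of the monocyte and macrophage genes in the change of the Atf4 response genes was not tested.

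**Figure D2:**
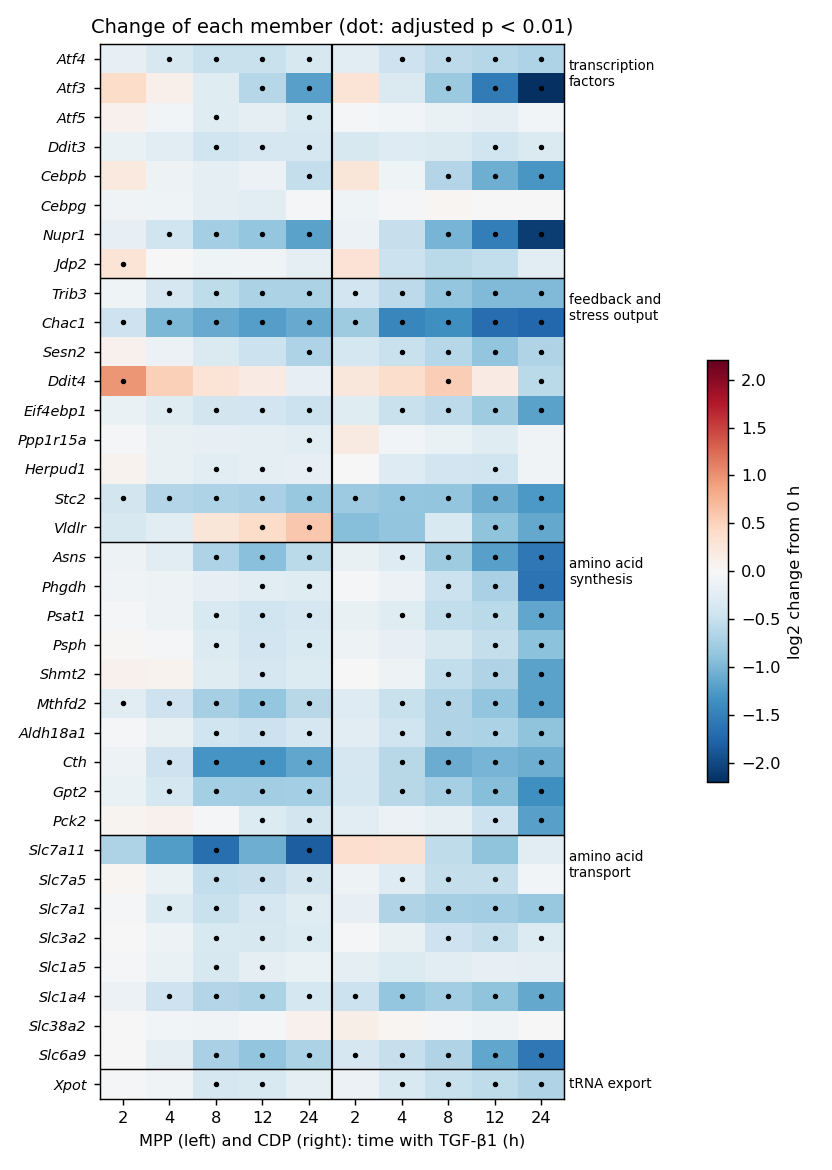
Log2 change from 0 h of each measured gene (rows, grouped by role) at 2, 4, 8, 12 and 24 h in MPP (left) and CDP (right). Blue is lower and red higher, and a dot marks a limma adjusted p under 0.01. Most rows darken to blue with time, more so in CDP, while Ddit4 is red early and Vldlr is red in MPP and blue in CDP.

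Among the 8 transcription factors, 6 were lower at 24 h in MPP (4.09% of all genes) and 5 in CDP (11.9%). Atf4 itself lay at 10.28, 10.23 and 10.22 in the untreated MPP arrays and at 9.88, 9.92 and 9.85 at 24 h. In CDP it lay at 10.19, 10.12 and 10.02 before and at 9.45, 9.36 and 9.46 at 24 h. The arrays of 0 h and 24 h did not overlap in either cell type. The change was -0.36 ± 0.04 (SE) in MPP (limma adjusted p = 2.9e-05, and 0.013 without replicate 1) and -0.69 ± 0.05 in CDP (limma adjusted p = 1.3e-07). In MPP its lowest mean came at 12 h, with arrays at 9.80, 9.87 and 9.58.

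Atf3 and Nupr1 changed most of these factors. Atf3, a stress-induced factor that binds related sites and often represses them, lay at 10.92, 10.90 and 11.10 in untreated CDP and at 8.75, 8.62 and 8.97 at 24 h, a change of -2.19 ± 0.12. In MPP it went from 10.10, 10.49 and 10.39 to 8.99, 9.29 and 9.13, a change of -1.19 ± 0.09. It was not lower at 2 h, when the MPP arrays read 10.58, 11.04 and 10.58 and the CDP arrays 11.13, 10.86 and 11.81, the last on the array with the highest interferon-stimulated genes. Nupr1, a small stress-induced chromatin protein, lay at 10.37, 10.35 and 10.58 in untreated CDP and at 8.23, 8.30 and 8.52 at 24 h. It changed by -2.08 ± 0.12 in CDP and by -1.18 ± 0.10 in MPP, where the arrays went from 10.06, 10.31 and 10.27 to 8.76, 9.20 and 9.15. For both genes the 24 h arrays lay below the untreated ones in each cell type.

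Cebpb, a C/EBP partner that also drives myeloid genes, went from 9.45, 9.26 and 9.78 in untreated CDP to 8.40, 8.03 and 8.22 at 24 h, a change of -1.28 ± 0.14. In MPP it went from 9.98, 10.24 and 10.43 to 9.52, 9.66 and 9.90, a change of -0.52 ± 0.11 (limma adjusted p = 0.0041, and 0.055 without replicate 1). Ddit3 encodes CHOP, which ties lasting stress to cell death. Its arrays went from 8.72, 8.64 and 8.77 to 8.27, 8.38 and 8.38 in MPP and from 8.57, 8.67 and 8.70 to 8.36, 8.38 and 8.21 in CDP. The changes were small, -0.37 ± 0.07 in MPP (highest adjusted p over the alternatives 0.042) and -0.33 ± 0.08 in CDP (highest 0.043). Of the other factors, Atf5 was called in MPP (-0.34 ± 0.06, highest adjusted p over the alternatives 0.047) and read -0.07 ± 0.07 in CDP. The C/EBP partner Cebpg was near 0 in both (-0.03 and -0.01). Jdp2, a repressor of the same family, rose by 0.31 ± 0.06 in MPP at 2 h and read -0.21 there at 24 h.

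**Figure D3:**
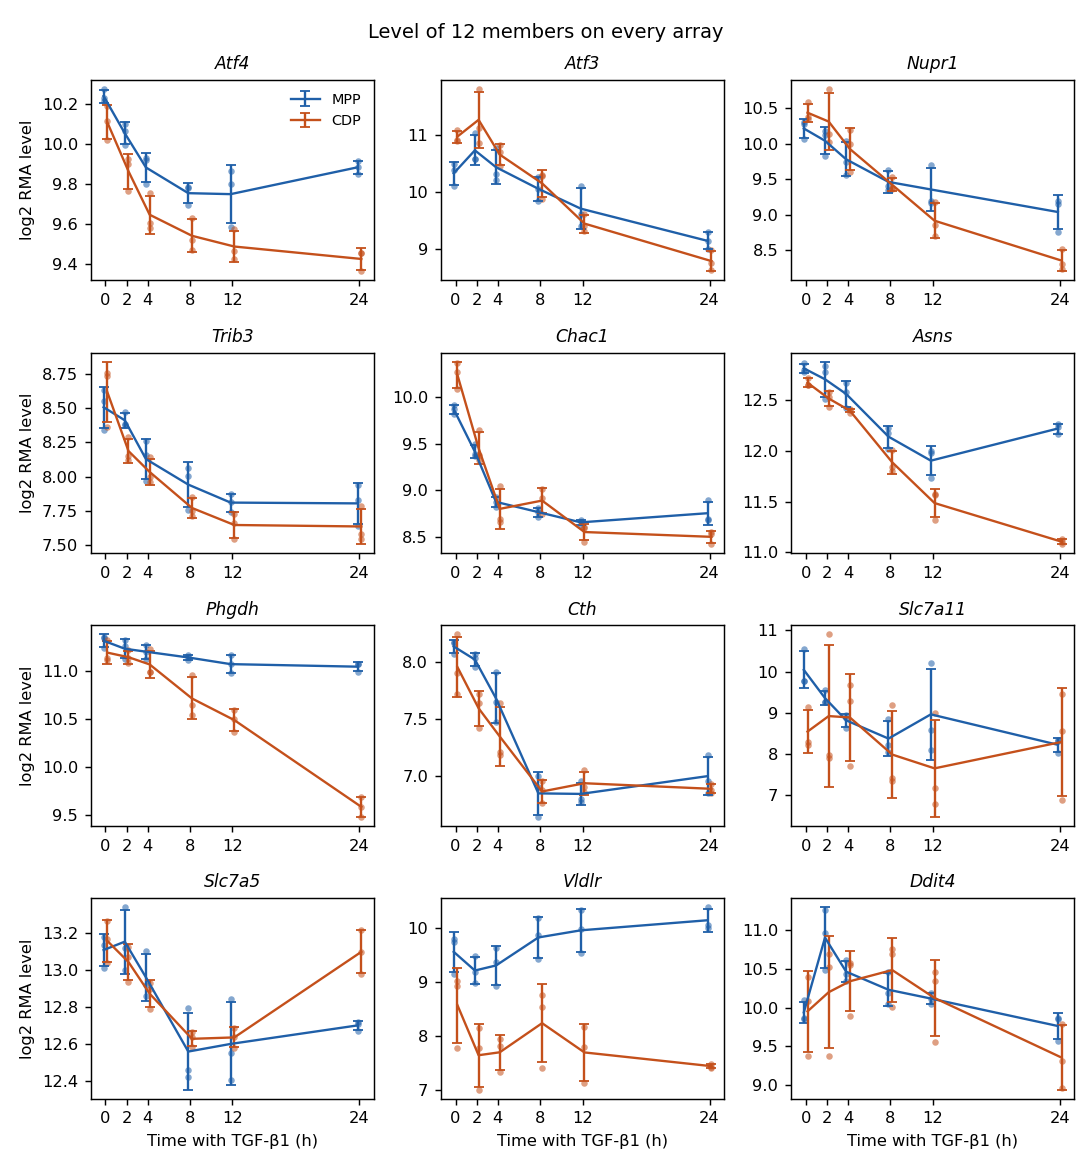
Log2 level of 12 of the genes on every array (points) against hours with TGF-β1, with lines through group means and bars for the SD of 3 arrays, MPP in blue and CDP in orange. Each vertical axis has its own range. Chac1 is down by 4 h in both cell types, Phgdh is down in CDP chiefly, and the arrays of Slc7a11 spread over more than 2 log2 units at single times.

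Among the 9 feedback and stress genes, 7 were lower at 24 h in each cell type (4.09% of all genes in MPP and 11.9% in CDP). Chac1, which encodes an enzyme that breaks down glutathione, was called lower at 2 h in both cell types, as was Stc2 alone of the other genes. It lay at 9.91, 9.87 and 9.82 in untreated MPP, at 9.36, 9.39 and 9.49 at 2 h, and at 8.90, 8.68 and 8.69 at 24 h. In CDP it lay at 10.36, 10.27 and 10.08 before, at 9.38, 9.33 and 9.64 at 2 h and at 8.55, 8.43 and 8.53 at 24 h. At 2 h it had thus changed by -0.45 ± 0.06 in MPP and -0.78 ± 0.10 in CDP, and at 4 h by -0.99 ± 0.06 and -1.43 ± 0.10. The 24 h changes were -1.11 ± 0.06 and -1.73 ± 0.10 (limma adjusted p = 1.5e-09 and 8.2e-09).

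Trib3, a pseudokinase that inhibits Atf4 activity, lay at 8.55, 8.63 and 8.34 in untreated MPP and at 7.83, 7.94 and 7.64 at 24 h. In CDP it lay at 8.73, 8.76 and 8.36 before and at 7.59, 7.78 and 7.54 at 24 h. It changed by -0.70 ± 0.08 in MPP and -0.98 ± 0.08 in CDP, the latter just short of 2-fold. Eif4ebp1, which encodes a brake on cap-dependent translation, went from 11.82, 11.83 and 11.74 to 11.33, 11.39 and 11.27 in MPP, a change of -0.47 ± 0.04. In CDP it went from 11.73, 11.69 and 11.54 to 10.38, 10.68 and 10.38, a change of -1.17 ± 0.08. Stc2, a secreted glycoprotein gene, had replicates far apart but moved within each. Its MPP arrays went from 9.23, 10.07 and 9.69 to 8.42, 9.26 and 8.81, and its CDP arrays from 9.14, 9.77 and 8.58 to 7.74, 8.09 and 7.90. The changes were -0.84 ± 0.07 in MPP (adjusted p = 0.078 without the replicate block) and -1.26 ± 0.15 in CDP. Sesn2, an inhibitor of mTORC1 that senses leucine, read -0.67 in both, and its call in MPP was lost without the block (adjusted p = 0.084).

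Genes of this role also rose. Ddit4 (REDD1), another mTORC1 inhibitor and also induced by glucocorticoid and hypoxia, lay at 9.85, 10.10 and 9.87 in untreated MPP and at 10.49, 10.97 and 11.26 at 2 h. It rose by 0.97 ± 0.15 (limma adjusted p = 0.00052) there. By 24 h it read 9.87, 9.86 and 9.57. In CDP it was called higher at 8 h (0.53 ± 0.12, adjusted p = 0.0064), a call lost without replicate 1, without replicate 2, without replicate 3 and without the block (0.44), and lower at 24 h (-0.60 ± 0.12, 0.31 without the block). Vldlr, a lipoprotein receptor gene, went from 9.81, 9.73 and 9.14 in untreated MPP to 10.39, 10.00 and 10.05 at 24 h. In CDP it went from 8.92, 9.03 and 7.77 to 7.43, 7.48 and 7.41. The change was 0.59 ± 0.09 in MPP (limma adjusted p = 0.00025, 0.20 without the block) and -1.13 ± 0.20 in CDP (0.00046, and 0.050 without the block). Replicate 3 was lowest before treatment in both. Ppp1r15a (GADD34), which restores translation by aiding eIF2 dephosphorylation, and Herpud1, of the degradation of unfolded protein, changed by less than 0.3 at 24 h. Both passed in MPP and not in CDP, and the MPP calls were lost in 7 and 8 of 28 alternatives (highest adjusted p 0.28 and 0.16, with all 36 arrays in 1 fit).

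The 10 enzymes of amino acid synthesis moved together. All 10 were lower at 24 h in CDP (11.9% of all genes), 8 of them 2-fold or more (1.79%). In MPP 9 were lower (4.09%), 1 of them 2-fold (0.487%). Asns, asparagine synthetase, lay at 12.87, 12.80 and 12.78 in untreated MPP, at 11.98, 12.00 and 11.74 at 12 h and at 12.17, 12.24 and 12.26 at 24 h. In CDP it lay at 12.72, 12.65 and 12.65 before, at 11.56, 11.32 and 11.57 at 12 h and at 11.11, 11.13 and 11.08 at 24 h. The 24 h arrays lay above the 12 h arrays in MPP (0.32 ± 0.06, adjusted p = 0.016, not past the test) and below them in CDP (-0.38 ± 0.06, 0.001). The 24 h changes were -0.60 ± 0.06 in MPP (limma adjusted p = 6.2e-06) and -1.57 ± 0.06 in CDP (2.2e-10).

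The enzymes of serine synthesis changed more in CDP than in MPP. Phgdh, the first enzyme of serine synthesis, lay at 11.36, 11.25 and 11.36 in untreated MPP and at 11.08, 10.99 and 11.08 at 24 h. In CDP it lay at 11.33, 11.12 and 11.14 before, at 10.51, 10.37 and 10.60 at 12 h, and at 9.68, 9.58 and 9.48 at 24 h. It changed by -0.27 ± 0.06 in MPP (adjusted p = 0.0027, 0.093 without replicate 1) and by -1.62 ± 0.07 in CDP (6.5e-10). Psat1, the next enzyme, went from 12.60, 12.55 and 12.46 to 11.43, 11.50 and 11.28 in CDP (-1.14 ± 0.06), and from 12.78, 12.63 and 12.63 to 12.33, 12.31 and 12.32 in MPP (-0.36 ± 0.05, 0.010 without replicate 1). Psph, the last, changed by -0.91 ± 0.09 in CDP and by -0.34 ± 0.07 in MPP (0.091 without replicate 1). All 3 were thus called in both cell types, with larger changes in CDP.

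Shmt2 and Mthfd2 carry one-carbon units from serine in mitochondria. Shmt2 went from 12.58, 12.62 and 12.40 in untreated CDP to 11.38, 11.38 and 11.34 at 24 h, a change of -1.17 ± 0.07. In MPP it read 12.77, 12.53 and 12.56 before and 12.38, 12.25 and 12.32 at 24 h, which did not pass the test (-0.30 ± 0.08, adjusted p = 0.018). Mthfd2 went from 12.07, 11.97 and 12.02 to 10.84, 10.71 and 11.00 in CDP (-1.17 ± 0.07). In MPP it went from 12.01, 11.84 and 11.86 to 11.33, 11.24 and 11.29 (-0.62 ± 0.05), and it was already lower at 2 h (-0.25 ± 0.05).

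Cth, cystathionine gamma-lyase of cysteine synthesis, reached by 8 h a level that changed little afterwards. It went from 8.17, 8.18 and 8.07 in untreated MPP to 6.85 ± 0.19 (SD, n = 3) at 8 h and to 6.86, 7.19 and 6.96 at 24 h. In CDP it went from 7.73, 8.25 and 7.91 to 6.88, 6.96 and 6.76 at 8 h and 6.86, 6.88 and 6.94 at 24 h. The 24 h changes were -1.14 ± 0.08 and -1.07 ± 0.09. Cth lay below the median of all genes on 29 of 36 arrays (medians 7.87 to 7.96). From 8 h on it read near some lineage genes of other blood cells (group means of Epor 6.85 to 7.03, of Pax5 6.91 to 7.25). Others read lower, and 5 T and NK cell genes had a mean of 6.25 in MPP and 6.35 in CDP at 24 h. Whether the low end of the scale held the changes of Cth was not tested. On the CDP arrays at 24 h, Trib3, Vldlr and Gpt2 also lay below the median. Gpt2, mitochondrial alanine transaminase, went from 9.01, 8.91 and 8.77 to 8.12, 8.05 and 8.25 in MPP (-0.76 ± 0.06) and from 8.78, 8.79 and 8.41 to 7.45, 7.23 and 7.26 in CDP (-1.34 ± 0.10). Pck2, mitochondrial PEP carboxykinase, went from 10.59, 10.73 and 10.48 to 9.45, 9.50 and 9.23 in CDP (-1.20 ± 0.08) and from 10.70, 10.60 and 10.55 to 10.25, 10.12 and 10.29 in MPP (-0.40 ± 0.07, 0.046 without replicate 1). Aldh18a1, the first enzyme of proline synthesis, changed by -0.36 ± 0.07 in MPP (0.094 without replicate 1) and -0.88 ± 0.09 in CDP.

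The 8 transporters were less even. In MPP 6 were lower at 24 h (4.09% of all genes) and in CDP 4 (11.9%). Slc6a9, a glycine transporter, went from 10.33, 10.19 and 9.86 to 9.46, 9.41 and 9.39 in MPP (-0.70 ± 0.08) and from 10.26, 10.38 and 9.97 to 8.72, 8.71 and 8.49 in CDP (-1.56 ± 0.07). Slc1a4, which carries alanine, serine and cysteine, went from 9.55, 9.60 and 9.39 to 8.30, 8.48 and 8.36 in CDP (-1.13 ± 0.08). In MPP it went from 9.37, 9.15 and 9.19 to 8.84, 8.77 and 8.95 (-0.38 ± 0.07, 0.048 without replicate 1). The arginine and lysine transporter gene Slc7a1 changed by -0.83 ± 0.06 in CDP and by -0.26 ± 0.06 in MPP (0.15 without replicate 2).

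The large neutral amino acid transporter gene Slc7a5 fell and came back in CDP. Its CDP arrays read 13.17, 13.27 and 13.04 before, 12.66, 12.58 and 12.64 at 8 h, and 12.98, 13.21 and 13.10 at 24 h. The change was -0.53 ± 0.06 at 8 h (limma adjusted p = 4e-05) and -0.06 ± 0.06 at 24 h, and from 12 h to 24 h it rose by 0.46 ± 0.06 (0.00035, and 0.018 without replicate 1). In MPP it read 13.18, 13.14 and 13.01 before and 12.72, 12.67 and 12.71 at 24 h (-0.41 ± 0.09, 0.11 without replicate 1). Its partner chain Slc3a2 was lower at 24 h in both (-0.31 ± 0.05 in MPP, 0.023 without replicate 2, and -0.30 ± 0.05 in CDP, 0.060 without replicate 1). Slc1a5, a glutamine transporter gene, was lower at 8 h and 12 h in MPP (-0.35 ± 0.04 and -0.20 ± 0.04) and did not pass at 24 h in either cell type (-0.15 and -0.20), and Slc38a2, another, did not pass at any time.

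Slc7a11, the cystine importer gene, fell in MPP, and its replicates lay far apart in CDP. In MPP it lay at 9.78, 9.78 and 10.56 before and at 8.31, 8.04 and 8.33 at 24 h, a change of -1.81 ± 0.37 (limma adjusted p = 0.0029). In CDP it lay at 8.29, 8.22 and 9.13 before and at 7.90, 7.97 and 10.90 at 2 h. It read 7.43, 7.35 and 9.19 at 8 h, 6.80, 7.18 and 8.99 at 12 h and 8.55, 6.88 and 9.45 at 24 h. No time passed the test in CDP. The CDP replicates at 24 h spread over more than 2 log2 units. The arrays with high Slc7a11 in CDP were those with high interferon-stimulated genes: at 4 h Slc7a11 read 9.68, 7.70 and 9.29 where the mean of those genes read 10.42, 7.94 and 9.94, and at 24 h the latter read 9.28, 8.29 and 9.89. In MPP the untreated replicate 3, highest for Slc7a11, read 8.89 for the interferon-stimulated genes beside 7.74 and 7.70. Without that array the MPP change had an adjusted p of 0.018 (0.045 without replicate 1, the highest of the alternatives), and its part in the value was not tested further. MPP replicate 2 at 12 h, at 10.21 for Slc7a11 beside 8.58 and 8.10, read 8.08 for those genes beside 7.69 and 7.80.

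Xpot, the exporter of tRNA from the nucleus, went from 12.21, 12.09 and 12.08 to 11.43, 11.40 and 11.57 in CDP at 24 h (-0.66 ± 0.06). In MPP it was lower at 8 h (-0.37 ± 0.05) and read -0.19 ± 0.05 at 24 h, which did not pass the test (adjusted p = 0.025).

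The responses of the 2 cell types were compared gene by gene, as the change from 0 h in CDP minus that in MPP. At 24 h this difference was negative and past the test for 20 of the 36 genes (7.04% of all genes) and positive for none (3.03%). None passed in either direction at 2 h (0.0552% of all genes each way), 4 h (0.306% negative and 0.301% positive) or 8 h (1.07% and 0.813%). At these times 9, 12 and 11 genes had an unadjusted p under 0.05 in limma. No share of all genes stands beside these unadjusted counts, so they describe the list alone. At 12 h 5 passed with a negative difference (1.93%) and none with a positive one (1.21%): Atf3, Cebpb, Vldlr, Phgdh and Slc7a1. The 20 held 9 of the 10 synthesis enzymes and did not hold Cth (0.07 ± 0.13, 95% interval -0.19 to 0.33). The 24 h arrays of Cth lay below the median of all genes in both cell types. The 20 also held 4 of 8 transcription factors (Atf4, Atf3, Cebpb and Nupr1). The rest were Chac1, Eif4ebp1 and Vldlr of the feedback genes, the transporters Slc7a1, Slc1a4 and Slc6a9, and Xpot. By size, Vldlr (-1.72 ± 0.23), Phgdh (-1.34 ± 0.09) and Atf3 (-1.00 ± 0.17) differed by 2-fold or more (1.13% of all genes).

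Asns differed by -0.98 ± 0.09, Nupr1 by -0.91 ± 0.17, Shmt2 by -0.87 ± 0.11 and Slc6a9 by -0.86 ± 0.11. Pck2 differed by -0.81 ± 0.11, Psat1 by -0.77 ± 0.07, Slc1a4 by -0.74 ± 0.11 and Eif4ebp1 by -0.71 ± 0.09. Atf4 itself differed least of the 20, by -0.33 ± 0.07 (limma adjusted p = 0.00067, 0.071 without replicate 1). Of the 20, 10 kept the call under all alternatives run: Eif4ebp1, Asns, Phgdh, Psat1, Shmt2, Mthfd2, Pck2, Slc7a1, Slc1a4 and Slc6a9. Without the replicate block 13 of 36 were called at 24 h and none at 12 h, and without replicate 1 or 2 the 24 h count was 12 or 13 and the 12 h count 0.

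**Figure D4:**
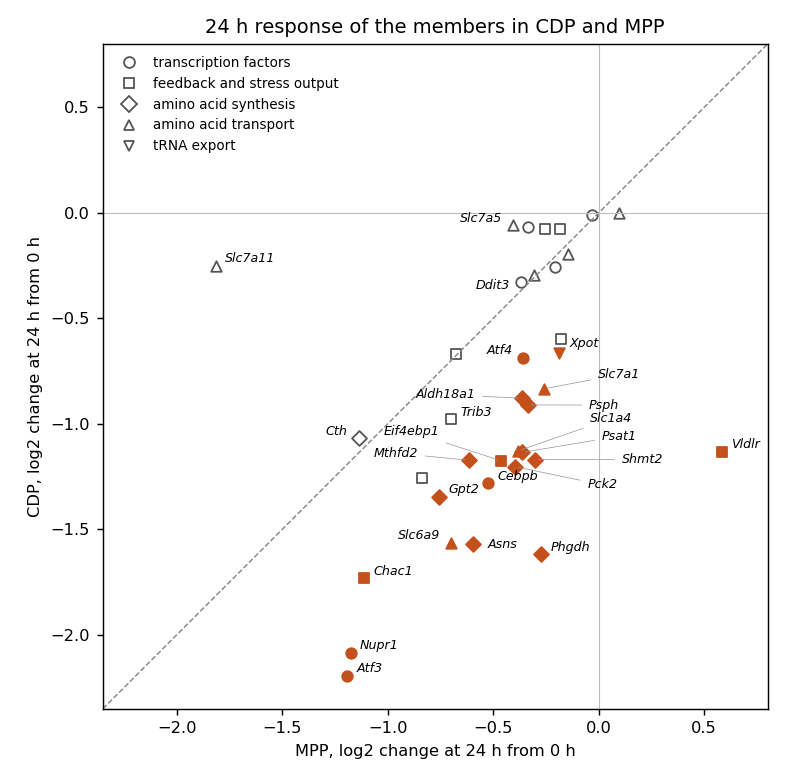
Log2 change at 24 h from 0 h in CDP (vertical axis) against that in MPP (horizontal axis) for the 36 genes, with marker shape for role. Filled points are the 20 genes whose responses differed (limma adjusted p under 0.01), and the dashed line marks equal change. All filled points lie below the line, Vldlr is right of 0 and below it, and Cth and Ddit3 lie near the line.

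The last interval of the time course, from 12 h to 24 h, was added to the comparisons after the values had been seen. In CDP 9 genes fell over it (3.39% of all genes) and in MPP 1 did (0.542%). Slc7a5 alone rose, in CDP (1.19%), and none did in MPP (0.396%). The 9 were Phgdh (-0.91 ± 0.07), Ddit4 (-0.77 ± 0.12), Pck2 (-0.72 ± 0.08), Atf3 (-0.66 ± 0.12), Psat1 (-0.54 ± 0.06), Shmt2 (-0.51 ± 0.07), Slc6a9 (-0.43 ± 0.07), Eif4ebp1 (-0.40 ± 0.08) and Asns (-0.38 ± 0.06). Of them, 5 were synthesis enzymes. The MPP gene was Atf3 (-0.57 ± 0.09, 0.34 without the block). Without replicate 1 the CDP count was 1, which was Phgdh. In MPP 14 genes had their lowest mean at 12 h and 14 at 24 h, and in CDP 8 and 23. No share of all genes stands beside these last counts, so they describe the list alone.

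Before treatment few of these genes were called different between the 2 progenitors, though some read far apart. Without a replicate block only Chac1 passed the test, higher in CDP by 0.37 ± 0.09 (limma adjusted p = 0.003, with 6.17% of all genes called higher and 7.91% lower). Its call was lost without MPP replicate 2 or 3, or CDP replicate 1 or 2, and with the 6 untreated arrays alone. That last fit gained 2 other calls. Atf3 read 0.65 higher in CDP, and Slc7a11 (-1.49), Vldlr (-0.99) and Cebpb (-0.72) read lower, none of which passed. With a replicate block shared by the cell types, Vldlr (9.1e-05) and Cebpb (0.0086) passed as lower in CDP beside Chac1 (0.0014). Deviations of same-numbered untreated MPP and CDP arrays correlated at 0.283 or above.

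Genes with the TGATGNAA core in the window were compared with those without it, as a description. In CDP at 24 h the median change was -1.13 over the 11 genes with it and -0.83 over the 21 without it. In MPP the medians were -0.60 and -0.34. Both groups held genes called lower. In CDP these were 8 of 11 with the core and 17 of 21 without it (11.9% of all genes). In MPP they were 9 of 11 and 16 of 21 (4.09%). Phgdh, Psat1 and Mthfd2, which fell, had no match in this window.

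**Figure D5:**
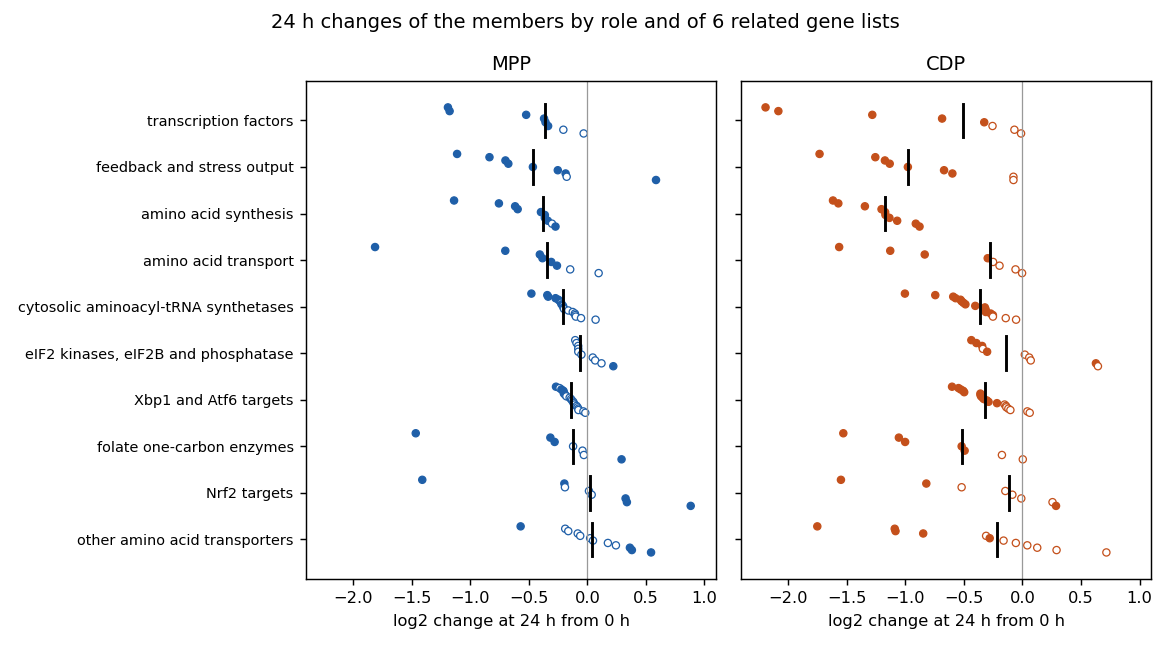
Log2 change at 24 h from 0 h (horizontal axes) in MPP (left) and CDP (right) for the Atf4 response genes by role (first 4 rows, without Xpot) and for 6 related gene lists (other rows). Each point is a gene, filled where its limma adjusted p is under 0.01, and the black bar is the median of the list. The synthesis enzymes have the lowest median in CDP, -1.17. The median of the eIF2 kinase and eIF2B list is -0.06 in MPP and -0.14 in CDP, where its genes range from -0.44 to 0.64.

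Lists of genes from linked pathways were read from the same fits. Cytosolic aminoacyl-tRNA synthetases charge tRNA and are also Atf4 targets. Of 18, 8 were lower at 24 h in MPP (4.09% of all genes) and 15 in CDP (11.9%). None was higher (5.61% and 7.83%). The median change was -0.21 in MPP and -0.36 in CDP. Cars changed by -0.48 in MPP and -1.00 in CDP, Yars by -0.34 and -0.74, Mars1 by -0.22 (not past the test) and -0.59, and Gars by -0.34 and -0.57. Windows were found for 11 of them, and 4 held the TGATGNAA core (Gars, Iars, Tars and Yars).

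Of 10 genes for eIF2 kinases, eIF2B and its partners, upstream of Atf4, none was lower in MPP (4.09% of all genes) and 4 were in CDP (11.9%). The 1 called higher in each cell type, beside 5.61% and 7.83% of all genes, was Eif2ak4, which encodes the kinase GCN2 that senses uncharged tRNA. It rose by 0.22 in MPP (limma adjusted p = 0.005) and by 0.63 in CDP (2.9e-06). The difference between the responses was 0.41 (0.00057). Eif2b3 (-0.44), Eif2b1 (-0.39) and Eif2b5 (-0.34), subunits of the exchange factor, were lower in CDP. The highest change on the list in CDP, 0.64, was that of another gene and did not pass the test.

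The unfolded protein response has other arms, read here from 20 genes, which are Xbp1, Atf6, Ern1 and targets of Xbp1 and Atf6. Of these 6 were lower at 24 h in MPP (4.09% of all genes) and 13 in CDP (11.9%), none by 2-fold. The medians were -0.14 and -0.32. Pdia6, a disulfide isomerase gene, changed by -0.60 in CDP, Sdf2l1 by -0.55, Hyou1 by -0.53 and the sensor gene Ern1 by -0.51. None of their 17 windows held the core. Of 7 other folate enzymes 3 were lower in MPP (4.09%) and 5 in CDP (11.9%). Mitochondrial Aldh1l2 changed by -1.47 in MPP and -1.53 in CDP, Mthfd1l by -0.32 and -1.05, and Shmt1 by -0.28 and -1.00.

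Targets of Nrf2, the factor of the oxidative stress response, were mixed. Of 8, 2 were lower (4.09% of all genes) and 3 higher (5.61%) in MPP at 24 h. In CDP 2 were lower (11.9%) and 1 higher (7.83%). Hmox1, haem oxygenase, changed by -1.41 in MPP and -1.55 in CDP, and Gclc, of glutathione synthesis, by 0.88 in MPP and 0.26 in CDP, the latter not past the test. Of 12 other amino acid transporters, 1 was lower (4.09%) and 3 higher (5.61%) in MPP, and 5 were lower in CDP (11.9%). Slc7a8 changed by -1.75 in CDP. Slc36a1, a lysosomal exporter gene, changed by 0.36 in MPP and -1.09 in CDP, and the difference between the responses, -1.45, passed the test (2.3e-07).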

How the data were processed

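The authors deposited 1 table of log2 values, 1 per probe set and array; per the submitters' notes the tools behind these log2 values were Affymetrix Power Tools and RMA (background correction, quantile normalization and summary over probes; versions not given in the sources used here). In its paper the study summarised probes by FARMS instead. Quantile normalization removes any shift shared by all genes. Of 35556 probe sets, 21789 have 1 gene symbol in the platform annotation, 1621 several and 12146 none; for 999 genes with several probe sets, the one with the highest mean was used. This left 19938 genes.

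limma 3.58.1 (R 4.3.3; lmFit, eBayes) was fitted to all genes. Within a cell type (18 arrays) the terms were time and replicate number, as in the study's methods; the difference of responses used all 36 arrays with replicate within cell type; untreated cells were compared without a block. p-values were Benjamini-Hochberg adjusted over all genes. Calls needed an adjusted p under 0.01, and for the 2-fold rule an absolute log2 change of 1. The number of arrays limits the precision. The study calls the 3 replicates biological. Deviations of same-numbered arrays from their group means correlated at 0.189 or above within MPP; in CDP 43 of 45 pairs exceeded 0.1 (lowest -0.128), and all 15 pairs with 0 h did (lowest 0.212).

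The members and lists were chosen with earlier results of these data known. Genes named with array values were Atf4, Ddit3, Trib3, Asns and Slc7a11, and, of those past the 2-fold rule in any comparison, the 15 with the largest 24 h change; Ddit4, Slc7a5, Vldlr, Psat1, Slc1a4 and Xpot were given them after their values were seen. From a related list up to 4 genes were named, from among those with the larger 24 h changes. Genes called in the difference of responses were named too. Fits were tested on simulated data. Alternatives were no replicate block, each replicate or array left out, all 36 arrays in 1 fit, an intensity trend, array weights, arrays centred on their median, a low-value filter at 7, and means over probe sets. Promoter windows came from RefSeq GRCm38.p6.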

Additional observations from a re-analysis of the deposited data

Results flagged for a closer look

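Results are given here because the change from 0 h in CDP differed from that in MPP by the limma interaction test over 36 arrays. At 12 h the difference was -0.91 for Atf3, -0.94 for Cebpb, -1.28 for Vldlr, -0.46 for Phgdh and -0.40 for Slc7a1. At 24 h, among transcription factors, it was -0.33 for Atf4, -1.00 for Atf3, -0.76 for Cebpb and -0.91 for Nupr1. Among feedback genes it was -0.62 for Chac1, -0.71 for Eif4ebp1 and -1.72 for Vldlr, the last with changes of opposite sign. Among enzymes it was -0.98 for Asns, -1.34 for Phgdh, -0.77 for Psat1, -0.57 for Psph, -0.87 for Shmt2, -0.56 for Mthfd2, -0.52 for Aldh18a1, -0.59 for Gpt2 and -0.81 for Pck2. It was -0.57 for Slc7a1, -0.74 for Slc1a4, -0.86 for Slc6a9 and -0.47 for Xpot.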

How the results depend on the processing

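Among single genes no call changed direction under any alternative run. All counts below are of the 36 genes at any size unless 2-fold is named. They stand without the share of all genes called under the same fit, so they describe the list alone. Without the replicate block, genes called lower in MPP were 1 at 2 h, 5 at 4 h, 16 at 12 h, 17 at 24 h and 0 from 12 h to 24 h, and genes called higher were 1 at 2 h and 0 at 12 h, at 24 h and from 2 h to 24 h. The same fit in CDP gave 1 lower at 2 h, 10 at 4 h and 5 from 12 h to 24 h, and 0 higher at 8 h. For the difference of responses it gave 0 (2-fold and any size) at 12 h and 1 (2-fold) and 13 at 24 h. It moved no other count by more than 1.5 times. With all 36 arrays in 1 fit, MPP had 1 higher at 2 h and 0 at 12 h and 24 h, and 0 lower and 1 higher from 12 h to 24 h, and CDP had 11 lower at 2 h and 3 higher from 12 h to 24 h. With array weights, MPP had 7 lower at 2 h, 19 (1 of them 2-fold) lower and 1 higher at 4 h, 1 higher at 8 h and 1 higher from 12 h to 24 h, CDP had 11 lower at 2 h and 1 higher at 4 h, and the difference of responses had 1 lower at 4 h, 3 at 8 h, 9 (3 of them 2-fold) at 12 h and 2 higher at 24 h, and untreated cells had 1 lower and 2 higher. With arrays centred on their median MPP had 0 higher at 12 h. With an intensity trend MPP had 1 and CDP had 2 higher from 12 h to 24 h. The 6 untreated arrays alone gave 1 lower (2-fold), and a replicate block shared by the cell types 2 lower. The median over the 36 genes in place of the mean changed by 0.14, -0.11, -0.22, -0.28 and -0.34 at 2, 4, 8, 12 and 24 h in MPP, and by -0.22 at 4 h in CDP.

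Leaving out a replicate number or an array gave these ranges. In MPP genes lower were 0 to 4 at 2 h, 3 to 13 at 4 h (2-fold 0 to 1), 13 to 25 at 8 h, 13 to 27 at 12 h, 11 to 28 at 24 h, 12 to 27 from 2 h to 24 h (2-fold 2 to 5) and 0 to 2 from 12 h to 24 h. Genes higher in MPP were 0 to 3 at 2 h (2-fold 0 to 1), 0 to 1 at 12 h, 0 to 1 at 24 h, and 0 to 1 (2-fold) from 2 h to 24 h. In CDP genes lower were 0 to 5 at 2 h (2-fold 0 to 1), 5 to 20 at 4 h (2-fold 1 to 2) and 1 to 11 from 12 h to 24 h, and genes higher were 0 to 1 at 4 h, 0 to 1 at 8 h and 0 to 1 from 12 h to 24 h. The difference of responses had 0 to 1 lower at 4 h and at 8 h, 0 to 7 at 12 h (2-fold 0 to 3), 12 to 20 lower at 24 h and 0 to 1 higher. Untreated cells had 0 to 1 lower and 0 to 1 higher. Over all comparisons, 123 of 282 calls on single genes were lost without replicate 1, 102 without replicate 2 and 39 without replicate 3, and 84 of 281 without the block. The fits that leave out a replicate number hold fewer arrays, and the cause of the other moves was not tested.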

Other observations

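Genes outside the list were ranked by how closely they followed the mean of the 36 genes over the 36 arrays, after the mean of each cell type was subtracted (13468 genes). The highest Pearson correlations were those of Cars (0.96), Ccl6 (0.96), Bcat1 (0.95), Lamc1 (0.95), Hax1 (0.94) and Cd300ld (0.94). Cars encodes cysteinyl-tRNA synthetase, Bcat1 the cytosolic transaminase of branched-chain amino acids and Ccl6 a chemokine. The lowest were those of Siglecf (-0.97), Rab11fip4 (-0.97), Entpd1 (-0.96) and Itpr2 (-0.94). The arrays share the same time course, so any gene that falls or rises steadily with time scores highly.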
